A study of Mus musculus with 12 samples.

Results

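The genes described here encode proteins that mark or serve the precursor stages of B cells: the surrogate light chain (Igll1, Vpreb1 and Vpreb2) and a relative of it (Vpreb3), the recombinase that cuts antigen receptor genes (Rag1 and Rag2), the polymerase that adds bases at the cut ends (Dntt) and the receptor for interleukin-7 (Il7r). They were taken by name, with no threshold on a measured value. All 8 were found among the 53379 gene identifiers measured, and 7 of them passed the filter on low counts that left 14299 genes for testing. Dntt did not pass.

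A precursor B cell assembles its immunoglobulin genes one at a time. The Rag1 and Rag2 proteins act together to cut the heavy chain gene segments, Dntt adds untemplated bases at the joins, and a successful heavy chain is carried to the surface with the surrogate light chain as the pre-B cell receptor. Interleukin-7 sustains growth and survival at these stages in the mouse, and surrogate light chain transcription normally ends as the cell matures.

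The cells were an Eµ-myc B cell lymphoma line from C57BL/6 mice, in which an immunoglobulin enhancer drives the oncogene Myc. They grew in RPMI medium with fetal calf serum. There were 4 groups of 3 samples. Unstimulated cells received no cytokine. The other groups were exposed to interferon-γ (IFN-γ; recombinant, murine, 5 ng/mL) for 1 h, 6 h or 24 h. Per the labels, exposure was ended by a neutralising antibody (clone XMG1.2, 50 µg/mL), with harvest 24 h after the start, so the 1 h and 6 h cells were measured long after IFN-γ had been blocked. The labels do not say whether the 24 h and the unstimulated cells also had antibody, when the unstimulated cells were collected, or whether samples of a group were separate cultures. Antibody and IFN-γ exposure therefore cannot be told apart where 1 h or 6 h cells are compared with unstimulated or with 24 h cells, and p-values speak only of the spread among these samples, which may be technical. The line is a single tumour cell line carrying a Myc transgene, so it stands for no normal stage of development.

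Library totals ran between 49440358 and 67096610 counts. The first principal component separated the 24 h libraries from the other 9 libraries, and the second separated IFNg_6h replicate 3 from the rest. Levels below are in CPM, which puts libraries of different totals on 1 scale and corrects for their composition. RPKM further divides CPM by the exon length in kilobases, so that genes can be compared with each other. A gene is called when its Benjamini-Hochberg adjusted p from edgeR is under 0.05 over the 14299 genes tested. Each of 8 B lineage markers was detected in every library, with Ighm, the IgM heavy chain, between 2794 and 2997 CPM. Of 10 T lineage markers, Cd4, Cd8a, Cd8b1, Ptcra and Bcl11b were at 0 in every library, and the summed level of the 10 lay between 1.46 and 2.36 CPM. The highest of the 10 were Lck, at 0.67 to 1.31 CPM, and Cd3g, at 0.44 to 1.13 CPM. T cell precursors also use Rag1, Rag2, Dntt and Il7r, and no listed T lineage marker exceeded 1.31 CPM here.

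Per kilobase of exon, the order in unstimulated cells was led by Vpreb3, at 100.7 ± 5.83 RPKM (SD, n = 3), above 97.4% of tested genes. Vpreb3 is a relative of the surrogate light chain proteins that stays inside the cell. Il7r followed at 69.6 ± 5.66 RPKM, then Rag1 at 35.1 ± 1.64, Rag2 at 15.5 ± 1.47, Igll1 at 12.4 ± 1.07 and Vpreb1 at 9.58 ± 1.31 RPKM. The libraries of neighbouring genes in this order did not overlap in unstimulated cells. Vpreb2 at 0.226 ± 0.0333 RPKM and Dntt at 0.0337 ± 0.0227 RPKM were far below the other 6 genes. After 24 h of IFN-γ the upper part of the order was the same, but Vpreb1 at 4.87 ± 0.577 RPKM and Igll1 at 4.76 ± 0.469 RPKM overlapped. The line thus carried transcripts of both recombinase subunits, of the Igll1 and Vpreb1 components of the surrogate light chain, and of IgM heavy chain, with almost none of Dntt.

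**Figure D1:**
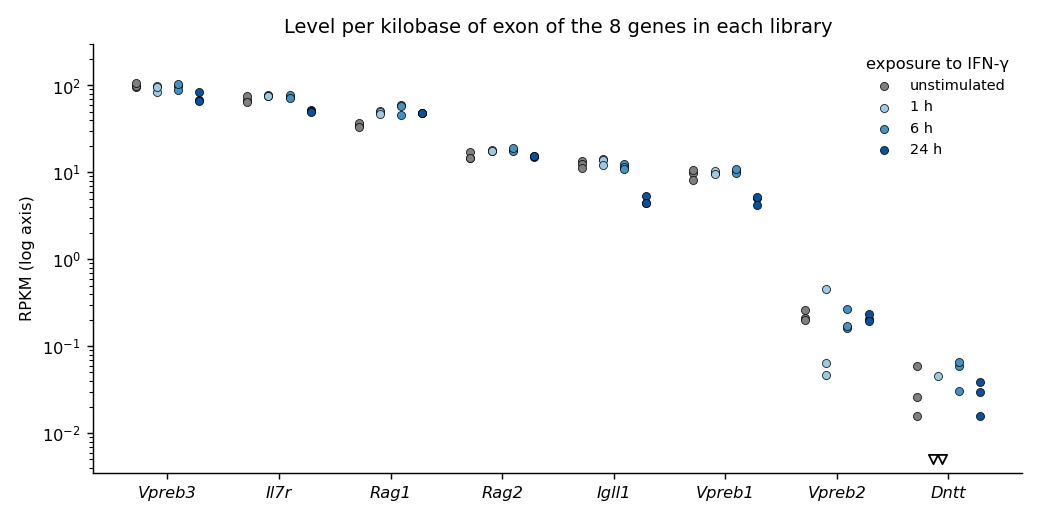
Level of each of the 8 genes in each of the 12 libraries, in RPKM on a log axis, with genes ordered by their level in unstimulated cells. Each circle is 1 library, coloured by exposure to IFN-γ, and the open triangles at the bottom mark 2 libraries of the 1 h group in which Dntt had 0 counts. Vpreb3 lay highest and Dntt lowest, and the 24 h circles of Igll1 and Vpreb1 lie below those of the other groups.

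The genes lie in a few places on the GRCm38 assembly. Igll1 (ENSMUSG00000075370.10, chromosome 16, 16860671 to 16863985, minus strand) and Vpreb1 (ENSMUSG00000059305.10, chromosome 16, 16868403 to 16870843, minus strand) are 4417 bases apart. Vpreb2 (ENSMUSG00000059280.3, chromosome 16, 17980428 to 17981273, plus strand) lies 1109584 bases beyond Vpreb1. Rag2 (ENSMUSG00000032864.4, chromosome 2, 101624718 to 101632529, plus strand) and Rag1 (ENSMUSG00000061311.6, chromosome 2, 101638282 to 101649501, minus strand) point toward each other with 5752 bases between them. Vpreb3 (ENSMUSG00000000903.3) is on chromosome 10 at 75943057 to 75949657, Il7r (ENSMUSG00000003882.5) on chromosome 15 at 9505788 to 9530176, and Dntt (ENSMUSG00000025014.12) on chromosome 19 at 41029275 to 41059525.

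Promoter windows are shown for 5 members, whose changes after 24 h differed. The windows of Vpreb2, Vpreb3 and Dntt are not shown but were searched in the same way. Each window covers 250 bases before and 50 bases after the RefSeq start on GRCm38.p6, read 5′ to 3′ on the strand of the gene. The RefSeq start need not be the outer end of the gene coordinates given above. For Vpreb1, Vpreb3 and Il7r the whole window lay inside those coordinates, and for Vpreb2 the start did. Promoters at the outer ends of these genes were thus not searched in full. Capitals mark every match, on either strand, to the letters searched: CAGCTG or CAGGTG (bound by E2A), CCCNNGGG (the core bound by EBF), TGGGAA (Ikaros), TGTTTAC (FOXO), TTCNNNGAA (the GAS element bound by STAT dimers) and GAAANNGAAA (the ISRE, bound by IRF proteins). The shorter E-box CANNTG, which contains the E2A letters, was counted but not marked. A match is a run of letters and not evidence of binding, so it is given as description only.
Igll1, chr16:16863936-16864235, minus strand: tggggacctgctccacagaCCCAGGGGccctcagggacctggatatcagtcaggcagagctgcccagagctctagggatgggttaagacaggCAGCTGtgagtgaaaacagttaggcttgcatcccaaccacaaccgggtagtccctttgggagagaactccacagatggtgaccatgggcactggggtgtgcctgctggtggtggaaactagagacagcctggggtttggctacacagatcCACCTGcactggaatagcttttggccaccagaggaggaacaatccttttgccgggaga
Vpreb1, chr16:16869206-16869505, minus strand: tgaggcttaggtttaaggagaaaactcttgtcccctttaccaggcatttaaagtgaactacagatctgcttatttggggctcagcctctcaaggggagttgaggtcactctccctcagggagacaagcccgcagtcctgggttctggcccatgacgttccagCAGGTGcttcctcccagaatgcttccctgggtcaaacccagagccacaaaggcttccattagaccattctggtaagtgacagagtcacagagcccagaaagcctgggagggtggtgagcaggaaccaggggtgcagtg
Rag1, chr2:101649483-101649782, minus strand: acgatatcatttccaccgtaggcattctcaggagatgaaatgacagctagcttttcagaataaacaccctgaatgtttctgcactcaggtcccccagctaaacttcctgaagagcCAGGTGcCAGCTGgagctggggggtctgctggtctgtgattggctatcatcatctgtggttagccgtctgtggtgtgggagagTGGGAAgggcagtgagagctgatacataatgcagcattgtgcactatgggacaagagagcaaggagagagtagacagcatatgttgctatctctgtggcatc
Rag2, chr2:101624462-101624761, plus strand: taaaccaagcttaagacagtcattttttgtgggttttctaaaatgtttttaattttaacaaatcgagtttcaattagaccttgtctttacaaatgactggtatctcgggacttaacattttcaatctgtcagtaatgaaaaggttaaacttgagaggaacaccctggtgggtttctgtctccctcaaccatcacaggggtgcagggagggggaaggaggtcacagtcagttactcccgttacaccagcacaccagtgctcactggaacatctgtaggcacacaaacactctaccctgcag
Il7r, chr15:9529827-9530126, minus strand: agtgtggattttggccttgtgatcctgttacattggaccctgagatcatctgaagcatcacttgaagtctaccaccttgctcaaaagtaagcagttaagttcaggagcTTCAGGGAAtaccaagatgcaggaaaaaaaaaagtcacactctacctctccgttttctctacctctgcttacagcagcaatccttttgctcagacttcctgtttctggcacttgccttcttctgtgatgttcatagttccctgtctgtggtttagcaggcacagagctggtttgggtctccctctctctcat

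The Igll1 window held 2 matches to the E2A letters and 1 to the EBF core. The Vpreb1 window held 1 E2A match, and the Rag1 window held 2 E2A matches and 1 Ikaros match. The Rag2 window held none of the 6 marked motifs. The Il7r window held 1 GAS match. Of the windows not shown, that of Vpreb2 held 2 E2A matches and 1 Ikaros match. Those of Vpreb3, which was lower after 24 h, and of Dntt held none of the 6 marked motifs. Among all 32851 promoter windows of the RefSeq table, 32.9% hold an E2A match, 13.7% an EBF core, 25.6% an Ikaros match, 3.65% a FOXO match, 8.3% a GAS match and 3.44% an ISRE match. No window of the 8 genes held a FOXO or ISRE match. The CANNTG E-box, found in 72.3% of windows, occurred in all 8.

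The comparison of 24 h exposure with unstimulated cells asks how these transcripts differed after the whole exposure. The collection time of the unstimulated cells and any antibody in either group are not recorded. A difference in time or antibody could therefore not be told apart from exposure. After 24 h, the surrogate light chain transcripts Igll1 and Vpreb1 fell to 0.383 and 0.508 times their unstimulated level, and Vpreb3 and Il7r fell to 0.724 and 0.736 times. Rag1 rose to 1.38 times its unstimulated level, and its partner Rag2 did not pass the test. Of the 7 members tested 4 were lower and 1 was higher, where 8.35% of all tested genes were called lower, 10.3% higher and 18.7% in either direction. The median log2 fold change of the 7 was -0.44, beside 0.00 over all tested genes. For 5 members the libraries of the groups did not overlap, as for 34.1% of all tested genes. In bulk RNA, fewer cells carrying a transcript and less transcript per cell cannot be told apart.

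**Figure D2:**
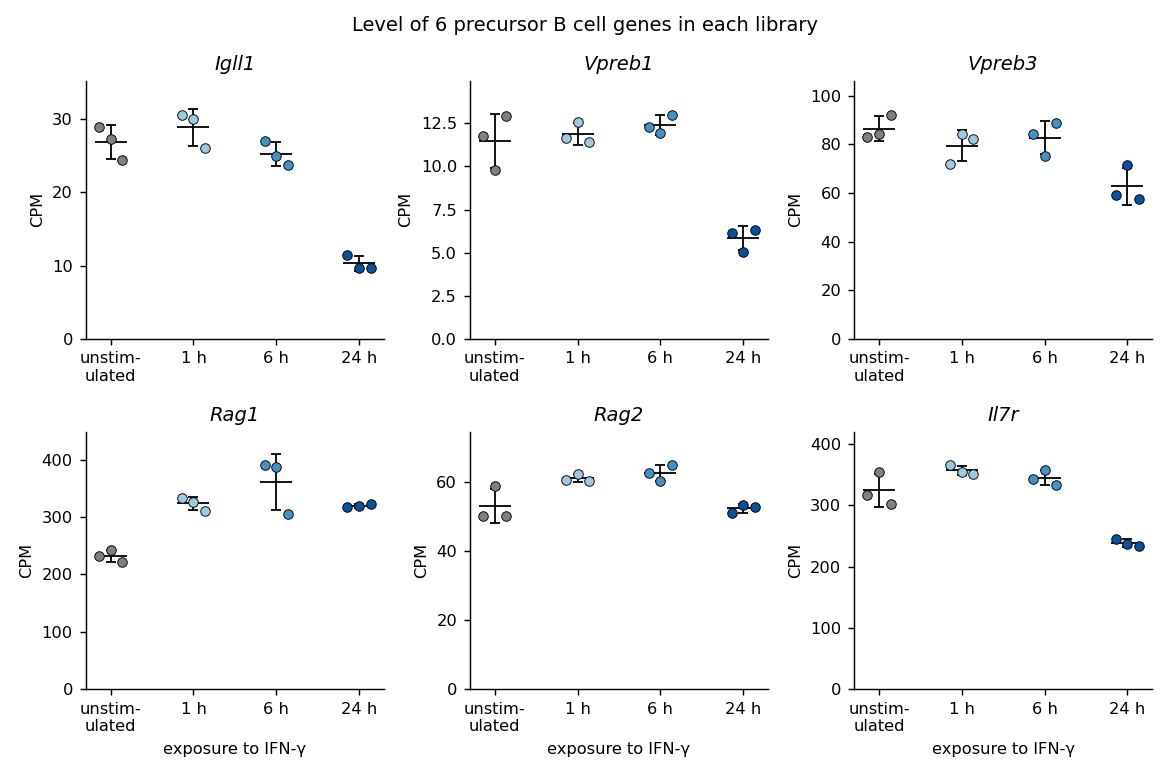
Level of 6 genes in each library, in CPM on linear axes from 0, by exposure to IFN-γ. Circles are libraries, and the bar and whiskers are the mean and SD of the 3 libraries of a group. Igll1, Vpreb1, Vpreb3 and Il7r are lowest in the 24 h group, while Rag1 is lowest in the unstimulated group.

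Igll1 encodes the lambda5 part of the surrogate light chain, which resembles an immunoglobulin light chain constant region. It had 29.0, 27.3 and 24.4 CPM in unstimulated libraries, 30.65, 30.1 and 26.04 after 1 h, 27.05, 25.0 and 23.8 after 6 h, and 11.5, 9.71 and 9.71 after 24 h. The 3 libraries of the 24 h group lay below the other 9, which overlapped one another. The mean was 10.3 ± 1.02 CPM after 24 h against 26.9 ± 2.32 CPM in unstimulated cells (SD, n = 3), which is -1.38 ± 0.08 as a log2 fold change (with its SE; edgeR adjusted p = 2.25e-13). This was the largest change among the 7 members tested. Igll1 stood above 52.3% of tested genes per kilobase after 24 h and above 73.3% in unstimulated cells.

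Vpreb1 encodes the other part, which resembles a light chain variable region and pairs with lambda5. It had 11.75, 9.80 and 12.9 CPM in unstimulated libraries, 11.7, 12.6 and 11.4 after 1 h, 12.3, 11.9 and 13.01 after 6 h, and 6.145, 5.04 and 6.32 after 24 h. Again the 24 h libraries lay below the other 9. The log2 fold change of 24 h against unstimulated cells was -0.98 ± 0.10 (edgeR adjusted p = 2.62e-08). The ratio of Igll1 to Vpreb1 counts was 1.78 ± 0.21 after 24 h against 2.38 ± 0.454 in unstimulated cells (SD, n = 3; two-sided exact permutation p = 0.2). Against 1 h cells, at 2.43 ± 0.178, the same exact test gave p = 0.1, the smallest that 3 against 3 allows, so this test could not pass 0.05. The ratios of 24 h and unstimulated libraries overlapped, with 1.925 in IFNg_24h replicate 2 and 1.889 in Unstimulated replicate 3. In the edgeR fit, 2 SE either side of the change against unstimulated cells reached from -1.55 to -1.22 for Igll1 and from -1.18 to -0.77 for Vpreb1. These approximate intervals did not overlap, but no test of the difference between the 2 changes was fitted. Exons of Vpreb1 share 108 bases with Top3b on the opposite strand, and Top3b had 3685 to 5184 counts per library. The strand setting of the counting is not given in the sources used here. It is thus not known whether reads from the shared bases were counted, or for which of the 2 genes. The change of Top3b between the groups is not given here.

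Vpreb2 is a near copy of Vpreb1. The coding sequences, 426 bases each, were identical at 417 positions (97.9%) and differed at 9, and 72 of the 635 windows of 125 bases in Vpreb2 transcripts (11.3%) also occur in Vpreb1. A read from these windows has 2 places to go, so counts of Vpreb2 are uncertain. It had between 2 and 21 counts per library, the 21 in IFNg_1h replicate 2, whose group also held the lowest counts of 2 and 3. No comparison was called for it, and its log2 fold change of 24 h against unstimulated cells was -0.09 with an interval of 2 SE either side from -1.37 to 1.19.

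Vpreb3 had 83.2, 84.1 and 92.3 CPM in unstimulated libraries, 72.1, 84.2 and 82.3 after 1 h, 84.2, 75.3 and 88.7 after 6 h, and 59.2, 71.6 and 57.4 after 24 h. IFNg_24h replicate 2 came close to the lowest 1 h library, and the 24 h libraries did not overlap the unstimulated ones. The log2 fold change of 24 h against unstimulated cells was -0.47 ± 0.09 (edgeR adjusted p = 0.00188). Coding sequence of Vpreb3 aligned to that of Vpreb1 was 57.5% identical, and no window of 125 bases was shared.

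Il7r encodes the chain that the receptors for interleukin-7 and for thymic stromal lymphopoietin have in common. It had 316.5, 353.9 and 302.9 CPM in unstimulated libraries, 365.3, 354.3 and 351.1 after 1 h, 343.2, 357.9 and 333.4 after 6 h, and 245.4, 236.5 and 233.9 after 24 h. The 24 h libraries were the lowest 3 of the 12. Its log2 fold change was -0.44 ± 0.05 (edgeR adjusted p = 3.22e-08), a size like that of Vpreb3 with a smaller error at its higher count.

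Rag1 encodes the subunit that carries the catalytic site of the recombinase. It had 232.3, 242.8 and 221.2 CPM in unstimulated libraries, 333.5, 327.1 and 310.9 after 1 h, 390.2, 388.0 and 305.5 after 6 h, and 317.1, 318.5 and 322.9 after 24 h. Every library exposed to IFN-γ was above every unstimulated library. After 24 h the mean was 319.5 ± 3.03 CPM against 232.1 ± 10.8 CPM in unstimulated cells (SD, n = 3), a log2 change of 0.46 ± 0.07 (edgeR adjusted p = 0.000283).

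Rag2 encodes the accessory subunit, which binds a histone mark of active chromatin. It had 50.1, 58.9 and 50.2 CPM in unstimulated libraries, 60.7, 62.5 and 60.5 after 1 h, 62.8, 60.4 and 64.9 after 6 h, and 51.0, 53.5 and 52.9 after 24 h. The 24 h libraries lay within the unstimulated range, and the 1 h and 6 h libraries above it. The log2 fold change of 24 h against unstimulated cells was -0.02 ± 0.06, with 2 SE either side reaching from -0.13 to 0.10. That approximate interval lay below the one for Rag1, which reached from 0.32 to 0.61. No test of the difference between the 2 changes was fitted.

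Dntt, the terminal transferase, had 2, 3 and 8 counts in unstimulated libraries, 6, 0 and 0 after 1 h, 4, 8 and 8 after 6 h, and 4, 2 and 6 after 24 h. Dntt did not pass the filter, so differences between the groups were not tested.

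In the 24 h libraries the summed level of the 8 B lineage markers ran from 5225 to 5262 CPM, against 5403 to 5526 CPM in unstimulated libraries. Summed T lineage markers were 1.46 to 2.13 CPM after 24 h against 1.48 to 2.31 CPM. Summed myeloid markers were 1.44 to 1.77 CPM against 1.82 to 2.09 CPM, with the granule gene Elane at 1 count or fewer per library and Cebpa at 0. Itgam was the highest myeloid marker, at 0.996 to 2.71 CPM over all libraries, and made up most of that sum. Summed innate lymphoid and NK markers were 0.0892 to 0.108 CPM against 0.108 to 0.204 CPM. Summed stroma markers, almost wholly Pecam1, which B cells can also carry, were 87.2 to 91.6 CPM against 57.4 to 58.9 CPM. The part of these sums in the results was not tested. Calls of all 5 members were kept under each alternative run and without each library in turn.

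**Figure D3:**
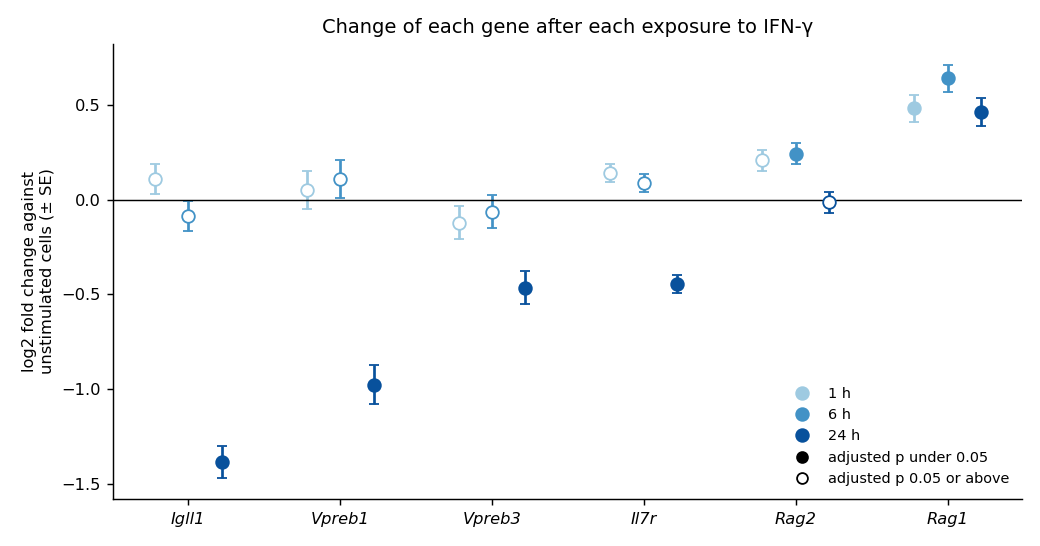
Log2 fold change of 6 genes against unstimulated cells after 1 h, 6 h and 24 h of IFN-γ, with whiskers of 1 SE from the edgeR fit. Filled circles have an adjusted p under 0.05. Igll1, Vpreb1, Vpreb3 and Il7r are filled below 0 at 24 h alone, and Rag1 is filled above 0 at each exposure.

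The comparisons of 1 h and 6 h exposure with unstimulated cells ask what differed at harvest after the cytokine had been blocked. Antibody is recorded for the 1 h and 6 h cells and not for the unstimulated ones, so antibody and exposure cannot be told apart here. Rag1 was higher after both exposures, and Rag2 was higher after 6 h. Igll1, Vpreb1, Vpreb2, Vpreb3 and Il7r were called in neither comparison. These comparisons and the 24 h one share the unstimulated libraries, so their values are not independent of each other.

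After 6 h, 2 of 7 members were higher and 0 lower, where 1.59% of all tested genes were called and 1.17% were higher. Rag1 averaged 361.2 ± 48.3 CPM after 6 h against 232.1 ± 10.8 CPM in unstimulated cells (SD, n = 3), a log2 change of 0.64 ± 0.07 (edgeR adjusted p = 0.000162). IFNg_6h replicate 3 lay far below the other 6 h libraries for Rag1, and without it the value was 0.74. Rag2 averaged 62.7 ± 2.25 CPM against 53.1 ± 5.02 CPM, a log2 change of 0.24 ± 0.06 (edgeR adjusted p = 0.0206). The Rag2 call was lost without Unstimulated replicate 1 (adjusted p = 0.168), Unstimulated replicate 3 (0.153) or IFNg_6h replicate 1 (0.0669), and with the trend on GC content removed (0.0567), all from edgeR. Igll1, Vpreb1, Vpreb3 and Il7r had log2 fold changes of -0.09 ± 0.08, 0.11 ± 0.10, -0.06 ± 0.09 and 0.09 ± 0.05, with intervals of 2 SE reaching no lower than -0.25, -0.09, -0.24 and -0.01.

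After 1 h, 1 of 7 members was higher and 0 lower, where 0.42% of all tested genes were called and 0.273% were higher. Rag1 averaged 323.8 ± 11.7 CPM after 1 h against 232.1 ± 10.8 CPM in unstimulated cells (SD, n = 3), a log2 change of 0.48 ± 0.07 (edgeR adjusted p = 0.00746). The call was lost without Unstimulated replicate 1 (adjusted p = 0.0619) or IFNg_1h replicate 1 (0.0511), although the value stayed at 0.48 and 0.46. Rag2 stood at 61.2 ± 1.12 CPM against 53.1 ± 5.02 CPM and was not called (log2 fold change 0.21 ± 0.06, edgeR adjusted p = 0.112). Without Unstimulated replicate 2, the library with the highest unstimulated Rag2 and Il7r, both Rag2 (0.28, adjusted p = 0.0075) and Il7r (0.20, adjusted p = 0.0235) were called higher after 1 h.

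The 24 h cells were then set against the cells whose exposure had been blocked. Antibody is recorded for the blocked cells and not for the 24 h cells, so a difference here cannot be assigned to the length of exposure alone. Against 6 h cells, 5 of 7 members were lower and 0 higher after 24 h, where 16.5% of all tested genes were called and 7.63% were lower. Igll1 had a log2 change of -1.30 ± 0.08 (edgeR adjusted p = 1.14e-12), and Vpreb1 had -1.09 ± 0.10 (3.12e-09). Il7r fell by 0.53 ± 0.05 on the log2 scale (9.07e-10). For Vpreb3 the value was -0.40 ± 0.09 (0.00601), and for Rag2 it was -0.26 ± 0.06 (0.00134). Rag1 was not called, at -0.18 ± 0.07 (adjusted p = 0.115). Without IFNg_6h replicate 3, Rag1 was called lower at -0.28 (adjusted p = 1.83e-05), and DESeq2 called it on all libraries (-0.18, adjusted p = 0.0498).

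Against 1 h cells, the same number of members was lower after 24 h, 5 of 7, where 18.9% of all tested genes were called and 8.78% were lower. Igll1 stood at -1.49 ± 0.08 (edgeR adjusted p = 3.87e-14), Vpreb1 at -1.03 ± 0.10 (8.78e-09) and Il7r at -0.58 ± 0.05 (1.21e-10). Rag2 had -0.22 ± 0.06 (0.00456) and Vpreb3 -0.34 ± 0.09 (0.0138). The Vpreb3 call was lost without IFNg_1h replicate 2 (adjusted p = 0.0569), IFNg_1h replicate 3 (0.0524), IFNg_24h replicate 1 (0.056) or IFNg_24h replicate 3 (0.0512). Rag1 was at -0.02 ± 0.07, with 2 SE either side from -0.16 to 0.12.

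Between 6 h and 1 h cells, 0 of 7 members were called by edgeR, where 0.0979% of all tested genes were called. At an unadjusted p under 0.05 there were 2, and DESeq2 and limma-voom each called 0. Igll1 had the lowest value, -0.19 with an interval from -0.35 to -0.04, and Rag1 the highest, 0.16 with an interval from 0.01 to 0.30. Without IFNg_6h replicate 3, Rag1 was called higher after 6 h than after 1 h (0.26, edgeR adjusted p = 0.00225).

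The products of Rag1 and Rag2 work as 1 complex, so their counts were also set against each other within each library. The ratio of Rag1 to Rag2 counts was 4.39 ± 0.254 in unstimulated libraries, 5.29 ± 0.184 after 1 h, 5.78 ± 0.936 after 6 h and 6.09 ± 0.137 after 24 h (SD, n = 3). Every exposed library had a higher ratio than every unstimulated one, and IFNg_6h replicate 3, at 4.71, was the closest to them. Each exposure against unstimulated cells gave a two-sided exact permutation p of 0.1, the smallest that 3 against 3 allows, so the design could not pass a threshold of 0.05. Between exposed groups the same exact test gave p = 0.9 for 24 h against 6 h, 0.4 for 6 h against 1 h and 0.1 for 24 h against 1 h. The 6 h libraries at 6.21 and 6.42 reached the 24 h range, so a rise with length of exposure was not shown. The ratio compares counts and not molecules, since Rag1 has 6608 and Rag2 3424 exon bases. Both genes overlap B230118H07Rik, Rag1 over 80 exon bases on the same strand and Rag2 over 208 on the opposite strand, and that gene had only 293 to 477 counts per library.

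**Figure D4:**
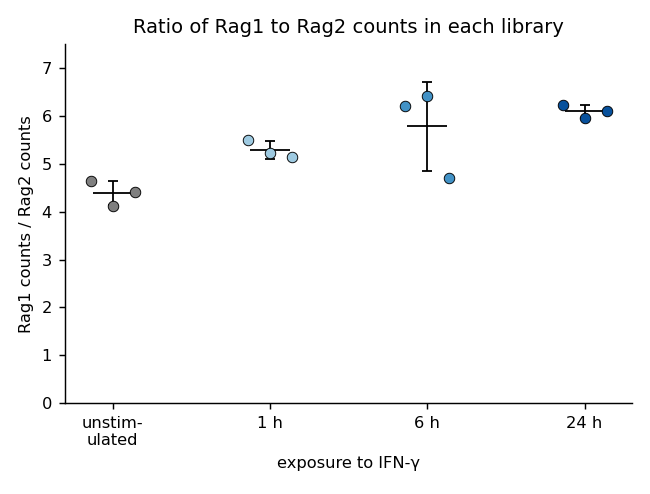
Ratio of Rag1 to Rag2 counts in each library, on a linear axis from 0, by exposure to IFN-γ. Circles are libraries, and the bar and whiskers are the mean and SD of 3 libraries. All exposed libraries lie above the unstimulated ones, and IFNg_6h replicate 3 lies apart from the other 2 of its group.

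Partners of the recombinase include chromatin proteins that help the cut, sensors of the breaks and the end-joining enzymes that seal them. Of 14 such genes, 1 was higher and 1 lower after 24 h, where 10.3% of all tested genes were higher and 8.35% lower, so the share called was near that of all genes. The median log2 fold change of the 14 was -0.02. Lig4, the ligase of the pathway, averaged 58.7 ± 1.88 CPM after 24 h against 74 ± 6.19 CPM in unstimulated cells (SD, n = 3), a log2 change of -0.33 ± 0.05 (edgeR adjusted p = 2.89e-05). Atm, the kinase that senses the breaks, averaged 213.9 ± 11.7 CPM against 162.5 ± 15.9 CPM, at 0.40 ± 0.06 (5.15e-05). Xrcc5 and Xrcc6, the Ku subunits that hold the ends, and Prkdc, the kinase they recruit, were not called, at -0.06, 0.04 and 0.03 on the log2 scale. After 1 h and after 6 h, edgeR called 0 of the 14. At an unadjusted p under 0.05 there were 0 and 3, and DESeq2 and limma-voom called 0 of the 14 in both.

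Pre-B cell receptor signalling genes were lower or not called. After 24 h, 5 of 11 fell and 0 rose, where 8.35% of all tested genes were lower and 10.3% higher, with a median log2 fold change of -0.16. Syk, the kinase that docks on the receptor, fell by 0.27 ± 0.04 on the log2 scale (edgeR adjusted p = 1.00e-05). The adaptor Blnk fell by 0.21 ± 0.04, the kinase Lyn by 0.19 ± 0.04, the phospholipase Plcg2 by 0.18 ± 0.04 and the receptor chain Cd79a by 0.16 ± 0.05. Each of these changes was smaller in size than that of Igll1. Cd79b, the partner chain of Cd79a (-0.09 ± 0.04, adjusted p = 0.168) and the heavy chain Ighm (-0.02 ± 0.04, adjusted p = 0.702) were not called by edgeR. After 1 h and after 6 h, edgeR called 0 of the 11, with 2 at an unadjusted p under 0.05 in each, and DESeq2 and limma-voom called 0.

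Other genes of the interleukin-7 receptor pathway went both ways. Of 12 genes, 4 were higher and 1 lower after 24 h, where 10.3% of all tested genes were higher and 8.35% lower, with a median log2 fold change of 0.11. Socs1, an inhibitor of JAK kinases that interferons are known to induce, averaged 8.86 ± 0.429 CPM after 24 h against 0.382 ± 0.0189 CPM in unstimulated cells (SD, n = 3), at 4.53 ± 0.19 on the log2 scale (edgeR adjusted p = 3.78e-17). The kinase Pim1 rose by 0.69 ± 0.06, the receptor kinase Jak3 by 0.41 ± 0.07 and the survival gene Mcl1 by 0.23 ± 0.04. Bcl2, a survival gene that interleukin-7 is known to maintain, fell by 0.51 ± 0.15 (adjusted p = 0.0134). Il2rg, the second chain of the interleukin-7 receptor (0.20 ± 0.08, adjusted p = 0.0683), Crlf2, which pairs with Il7r in the other receptor (0.21 ± 0.20), and the pathway's transcription factors Stat5a (0.02 ± 0.05) and Stat5b (-0.04 ± 0.04) were not called. Pim1 was also higher after 6 h (0.42 ± 0.06) and after 1 h (0.37 ± 0.06), the single gene of the list that edgeR called in each. DESeq2 called 2 of the 12 after 6 h and 1 after 1 h, and limma-voom called 1 in each. At an unadjusted edgeR p under 0.05 there were 5 after 6 h and 2 after 1 h.

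Transcription factors of early B cells went both ways. After 24 h, 4 of 20 tested, of 22 listed, were higher and 6 lower, where 10.3% of all tested genes were higher and 8.35% lower, with a median log2 fold change of -0.01. Ebf1, which with E2A is known to activate surrogate light chain genes, had 201.6, 220.4 and 202.2 CPM in unstimulated libraries, 254.5, 239.8 and 240.2 after 1 h, 274.7, 265.3 and 240.3 after 6 h, and 177.0, 173.2 and 176.0 after 24 h. It was thus above the unstimulated libraries in the blocked groups and below them in the 24 h group. Its log2 fold changes against unstimulated cells were 0.23 ± 0.05 after 1 h (edgeR adjusted p = 0.0175), 0.32 ± 0.05 after 6 h (0.000136) and -0.25 ± 0.05 after 24 h (0.00034). Irf4, which with Irf8 is known to end surrogate light chain expression in the mouse, moved the same way, with 0.29 ± 0.04 after 1 h, 0.32 ± 0.04 after 6 h and -0.55 ± 0.04 after 24 h (adjusted p = 0.000416, 2.06e-05 and 3.22e-11). Irf8 itself averaged 162.9 ± 2.62 CPM after 24 h against 61.6 ± 6.89 CPM in unstimulated cells, a log2 rise of 1.403 ± 0.06 (edgeR adjusted p = 3.26e-16).

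Ikzf1, which encodes Ikaros, a repressor of surrogate light chain genes, fell by 0.37 ± 0.04 on the log2 scale after 24 h (edgeR adjusted p = 3.58e-07), and the B lineage factor Pax5 fell by 0.31 ± 0.05 (0.000134). Bcl6, a repressor that protects pre-B cells at the light chain stage, rose by 2.69 ± 0.32 at a low level, 1.70 ± 0.238 CPM after 24 h against 0.264 ± 0.0511 CPM in unstimulated cells (1.92e-07). Tcf3, which encodes E2A (-0.09 ± 0.05, adjusted p = 0.181), and Foxo1, an activator of Rag1 and Rag2 in the mouse (0.01 ± 0.04, adjusted p = 0.903), were not called after 24 h. Foxo1 was higher after 6 h, at 0.17 ± 0.04 (edgeR adjusted p = 0.0475). In that comparison 5 of 20 were higher and 1 lower, where 1.59% of all tested genes were called and 1.17% were higher. After 1 h 3 of 20 were higher and 0 lower, where 0.42% were called and 0.273% were higher. Myc, the oncogene of the line, stood at 0.07 ± 0.04 after 24 h (adjusted p = 0.296).

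Surface markers showed no single direction by stage. Of 8 tested markers of precursor B cells, of 11 listed, 3 were higher and 1 lower after 24 h, where 10.3% of all tested genes were higher and 8.35% lower, with a median log2 fold change of 0.28. Spn, which encodes CD43, rose by 0.64 ± 0.05, Ptprc, which encodes CD45, by 0.43 ± 0.04 and Ly6d by 0.34 ± 0.11 on the log2 scale (edgeR adjusted p = 4.09e-11, 3.3e-09 and 0.0322). Cd24a fell by 0.49 ± 0.04 (3.46e-10). Of 9 tested markers of mature B cells, of 11 listed, 5 were higher and 2 lower against the same shares of all tested genes (10.3% and 8.35%), with a median of 0.45. Cd40, the receptor for T cell help, rose by 0.84 ± 0.17 (0.000768), and Fcmr, a receptor for IgM, fell by 1.72 ± 0.16 (1.55e-09). Kit and Cd34, markers of the earliest stages, and the mature markers Cr2 and Fcer2a were not tested because of their low counts. Between 6 h and 1 h cells edgeR called 0 genes of any of the 6 lists. DESeq2 called 1 marker of mature B cells there and 0 genes of the other lists, and limma-voom called 0. At an unadjusted edgeR p under 0.05 there were 2 markers of mature B cells. The end-joining, interleukin-7 receptor and precursor marker lists had 1 gene each.

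**Figure D5:**
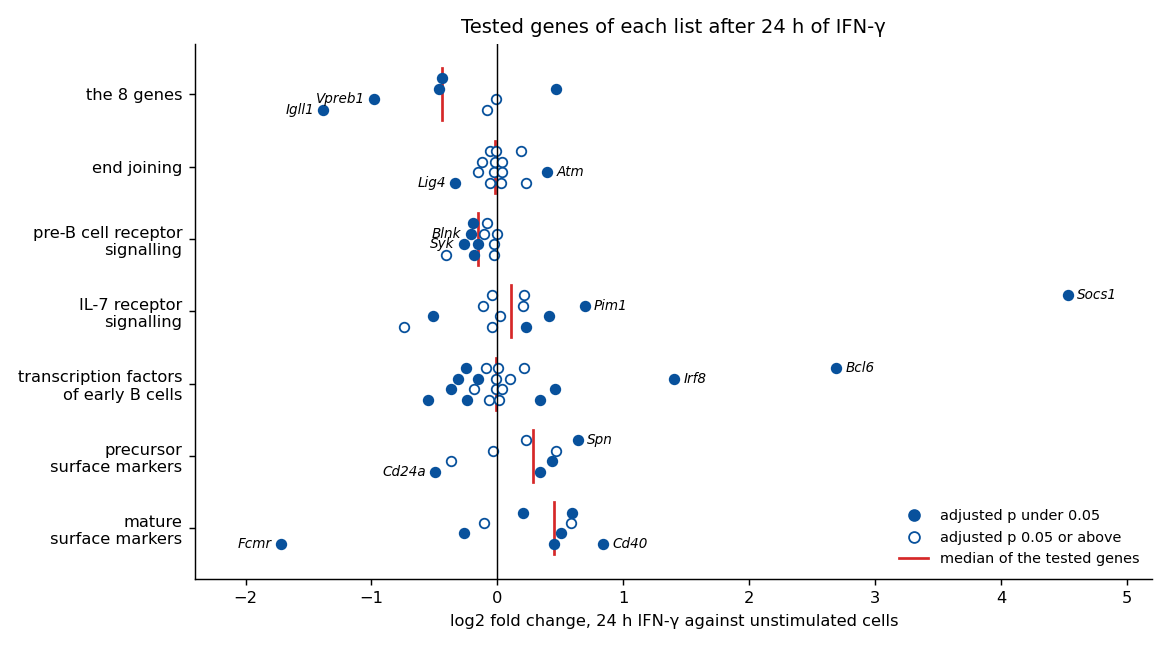
Log2 fold change of 24 h IFN-γ against unstimulated cells for every tested gene of the 8 described here and of 6 lists of related genes. Each circle is a gene, filled where the adjusted p was under 0.05, and the red line is the median of a row. The row of the 8 genes has 4 filled circles below 0 and 1 above, and the median of its 7 tested genes is -0.44.

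Across the 12 libraries, log2 CPM of Igll1 had a Pearson r of 0.96 with Il7r and of 0.94 with Vpreb1, and Rag1 had 0.56 with Rag2 and 0.06 with Il7r. These values are descriptions, since the 12 libraries fall into a 24 h set and the rest, and the same libraries enter each value. Likeness was ranked among 9776 tested genes averaging 1 CPM or more, with predicted-gene names left out. Among the 9775 genes other than the member itself, Il7r ranked 28 and Vpreb1 62 for Igll1. For Rag1, Rag2 ranked 616 and Il7r 4130. Fcrla, an Fc receptor-like gene of B cells, was most like Igll1 (r = 0.98), and it too was lower after 24 h, at -0.53. Cd72, an inhibitory receptor of B cells, was most like Vpreb1 (r = 0.98, with -0.38 after 24 h), and Gclc, of glutathione synthesis, was most like Il7r (r = 0.99, with -0.44). Mmp11 was most like Vpreb3 (r = 0.97), Ocrl most like Rag2 (r = 0.93) and Oxr1 most like Rag1 (r = 0.94). Ranked next were Rasd1 and Fam107b for Igll1, Smg6 and Amigo1 for Vpreb1, Klhl14 and Foxf2 for Il7r, Rgs10 and Atp6ap1 for Vpreb3, Il16 and Foxn3 for Rag1, and Arhgap29 and Kdm3a for Rag2.

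The nearest tested gene on each side that does not overlap the member was also compared. Overlapping genes, among them Top3b at Vpreb1 and B230118H07Rik at Rag1 and Rag2, were left out of this comparison. Below the Igll1 and Vpreb1 pair, Dnm1l was not called after 24 h (0.06 ± 0.05). Above the pair and beyond Top3b, Ppm1f, 25625 bases from Vpreb1, was lower by a small amount (-0.20 ± 0.05, edgeR adjusted p = 0.00202). Traf6, 28927 bases from Rag1, was not called after 24 h (-0.07 ± 0.04, adjusted p = 0.303). The neighbours of Il7r, Capsl and Spef2, were not called either (-0.24 ± 0.10 and 0.00 ± 0.11). On the other side of Rag2 lies Gm13803, 3675038 bases away, which was not called (-0.41 ± 0.36, adjusted p = 0.473). Of the neighbours of Vpreb3, Gm867 (0.56 ± 0.59, adjusted p = 0.562) and Zfp280b (-0.12 ± 0.05, adjusted p = 0.0816) were not called. Next to Vpreb2, Dgcr6 rose by 1.03 ± 0.08 after 24 h (edgeR adjusted p = 3.5e-11), and Slc25a1 on the other side was not called (-0.01 ± 0.06, adjusted p = 0.934). Dntt lies between Blnk, described above, and Tm9sf3, which was not called (-0.03 ± 0.05, adjusted p = 0.696).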

How the data were processed

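Per the labels' protocols, stranded libraries of polyadenylated RNA were prepared using 500 ng of input RNA and 10 PCR cycles, then sequenced as pairs of 125 bases. The file the authors deposited holds whole-number raw counts for each gene, and these were used unchanged. The submitters' processing notes name STAR 2.5.2a, the mm10 build, Picard and featureCounts 1.4.3-p1. For the counting, the annotation and strand setting were not given in the sources used here. Because the header doubles some separators, sample names were matched to value columns in order and to sample titles by exact name. Between 69.9% and 73.9% of counts from 1 to 20 were even in each library, as when both mates of a pair are counted, so a count is worth less than a molecule.

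Genes were filtered with filterByExpr, scaled by TMM and fitted over all 12 libraries and 4 groups with edgeR 4.0.16 (R 4.3.3; robust quasi-likelihood F tests, 8 residual degrees of freedom, Benjamini-Hochberg adjustment over 14299 genes). The common biological coefficient of variation was 0.0579. A standard error is the log2 change over the root of its F statistic. RPKM used merged exon lengths of GENCODE M21. Likeness used log2 CPM with a prior count of 2. Alternatives were DESeq2 1.42.0, limma-voom (limma 3.58.1), RLE factors, other filters, halved counts, length or GC trends removed, a stricter threshold, a replicate block and single libraries left out. All columns of the table belong to labelled samples.

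The 8 genes, the related lists and the naming rule were chosen with earlier results of these data known. The rule names the 8 genes, 20 regulators and partners whatever their result, from each list the 2 called genes with the largest change after 24 h (every called gene where 5 or fewer were called), the 3 genes most like each called member and the nearest tested neighbours. Some of these are given by name alone. Genes that overlap a member were not taken as neighbours. Transcription factors called in other comparisons are given as counts.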

Additional observations from a re-analysis of the deposited data

Results flagged for a closer look

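The level of 5 genes differed between the 24 h cells and the blocked cells when the difference was tested directly with edgeR. The blocked cells had antibody and none is recorded for the 24 h cells, so exposure and antibody cannot be told apart here. Between 24 h and 6 h cells, the log2 difference was -1.30 for Igll1, -1.09 for Vpreb1, -0.53 for Il7r, -0.40 for Vpreb3 and -0.26 for Rag2. Between 24 h and 1 h cells it was -1.49 for Igll1, -1.03 for Vpreb1, -0.58 for Il7r, -0.34 for Vpreb3 and -0.22 for Rag2. For Igll1, Vpreb1, Vpreb3 and Il7r the level was lower in the 24 h cells than in every other group. For Rag2 the 24 h level was close to that of unstimulated cells (52.5 ± 1.35 CPM against 53.1 ± 5.02 CPM, SD, n = 3), and the 1 h and 6 h cells stood above both.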

How the results depend on the processing

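Against unstimulated cells, 5 members were called after 24 h under every alternative run and without each library. After 6 h the count of 2 became 1 with an adjusted p under 0.01, with the GC trend removed and with only the 6 libraries compared, and it ran from 1 to 2 with libraries left out. After 1 h the count of 1 became 2 with the filter of 1 count in any library and ran from 0 to 3 with libraries left out. With libraries left out, the count ran from 5 to 6 for 24 h against 6 h, from 4 to 5 for 24 h against 1 h and from 0 to 1 for 6 h against 1 h. Values that changed sign did so with a library left out, and none was called. These were Rag2 after 24 h against unstimulated cells (-0.051 to 0.069), Vpreb1 after 1 h against unstimulated cells (-0.054 to 0.14), Rag1 in 24 h against 1 h (-0.048 to 0.010) and Vpreb3 in 6 h against 1 h (-0.0072 to 0.12). For Vpreb2 the ranges were -0.17 to 0.037 after 24 h and -1.96 to 0.21 after 1 h against unstimulated cells, -0.070 to 0.34 in 24 h against 6 h, -0.30 to 1.88 in 24 h against 1 h and -0.36 to 1.82 in 6 h against 1 h. The count of all genes called after 6 h, 228, became 374 with DESeq2, 413 with the filter of 1 count, and 95 with only the 6 libraries compared, and it ran from 89 (without Unstimulated replicate 1) to 531 (without IFNg_6h replicate 3) with libraries left out. After 1 h the count of 60 became 119, 174 and 104 under the first 3 of these, and it ran from 15 (without Unstimulated replicate 1) to 114 (without Unstimulated replicate 2). For 6 h against 1 h the count of 14 became 35, 36 and 9, and 9 with limma-voom, and it ran from 8 to 24 (without IFNg_6h replicate 3). An adjusted p under 0.01 left 1562 genes after 24 h, 80 after 6 h and 21 after 1 h against unstimulated cells. It left 1403 in 24 h against 6 h, 1650 in 24 h against 1 h and 8 in 6 h against 1 h. The cause of these shifts was not tested.

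Samples that share a replicate number did not deviate together: 0 of 18 such pairs had a correlation over 0.1 (-0.07 to 0.06). With the replicate number as a block, 5 members were called after 24 h, 2 after 6 h and 1 after 1 h against unstimulated cells, and Rag1 in 24 h against 6 h was called as well (-0.17, edgeR adjusted p = 0.0298). It was also called with the filter of 1 count in any library (-0.17, adjusted p = 0.00229). Depth limits Vpreb2 and Dntt, which had at most 21 and 8 counts per library.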
